A study of Mus musculus with 4 samples.

Results

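Mitochondrial ribosomal proteins are the protein parts of the ribosome that works inside mitochondria. Here they were the 77 genes, of 12693 gene symbols in the expression table, whose symbol is Mrpl or Mrps followed by a number and at most 1 letter. They were measured by RNA-seq in CD31-sorted brain endothelial cells (ECs) from the cerebral cortex of C57BL/6 mouse embryos at embryonic day 18. The 2 wild-type libraries came from littermates without the Cre transgene, and the 2 *Foxq1* conditional knockout (cKO) libraries came from FOXQ1fl/fl;Tie2-Cre embryos. Foxq1 is a forkhead transcription factor, and Tie2-Cre deletes the floxed gene in the cells of the embryo that express or descend from cells that expressed Tie2, which include blood cells as well as ECs. The labels do not say how many embryos went into each library, so the spread between the 2 libraries of a group may be partly technical. The question was whether the mRNAs of the mitochondrial ribosome differed between *Foxq1* cKO and wild-type ECs.

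The mitochondrial ribosome, or mitoribosome, translates the few mRNAs that are encoded in mitochondrial DNA, all of which specify subunits of the respiratory chain and the ATP synthase. Its rRNAs are transcribed from mitochondrial DNA, whereas all of its proteins are encoded in the nucleus, translated in the cytosol and imported. Some of these proteins have counterparts in bacterial ribosomes, and others are classed as specific to mitochondria. The study reports that brain ECs use mitochondrial metabolism and not glycolysis alone. In *Foxq1* cKO brain ECs it reports disordered mitochondrial cristae, lower oxygen consumption and less ATP made by mitochondria. It found the barrier between blood and brain intact in *Foxq1* cKO mice.

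Of the 77 genes, 50 code for large-subunit proteins and 26 for small-subunit proteins, and 46 of these have a bacterial counterpart while 30 are specific to mitochondria. The symbols do not always give the subunit. Mrps30 and Mrps18a carry a small-subunit name but their products sit in the large subunit, and they were counted there. The product of Mrps36 is a component of the 2-oxoglutarate dehydrogenase complex and not of the mitoribosome, so it was kept among the 77 but in neither subunit. The annotation holds 78 genes with such a symbol, and the 1 without values here was Mrpl53. The 77 genes lie on 17 chromosomes, with 11 of them on chromosome 11.

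Depth was between 15827166 and 21466436 reads on listed genes per library. *Foxq1* had 353 and 297 normalized read counts (reads divided by the size factor of the library) in wild-type 1 and 2, and 5.44 and 32.6 in *Foxq1* cKO 1 and 2. The 2 knockout libraries were therefore both far below the wild-type libraries, with a log2 fold change of -4.47 ± 1.04 (SE, limma, unadjusted p = 0.0051, adjusted p = 0.857). Wild-type 1 stood a little apart, since its correlations with the other 3 libraries ranged from 0.842 to 0.859 on the log2 scale, against 0.878 to 0.904 among those 3. All 11 endothelial markers were listed. Their summed normalized read count was 408293 and 375427 in wild-type against 325896 and 362764 in *Foxq1* cKO libraries, so the groups did not overlap. Without overlap, 7 of the 11 markers were lower in *Foxq1* cKO and 1 was higher (Cdh5, 4570 and 4269 in wild-type against 4769 and 4803 in *Foxq1* cKO). The marker counts without overlap in this paragraph stand beside a background of 18% of all genes tested in each direction. Summed markers of microglia and macrophages (9 of 9 listed) were 9738 and 10881 in wild-type against 7181 and 7734 in *Foxq1* cKO, again without overlap, although 2 of the 9 markers were higher (C1qc and Trem2) and 3 lower without overlap. Neural lineage markers (10 of 10 listed) summed to 16770 and 17068 in wild-type and to 18278 and 17934 in *Foxq1* cKO, with 1 marker higher (Nes) and 2 lower without overlap, and without Nes the sums were 11477 and 11429 against 9671 and 11616 and overlapped. Pericyte and smooth muscle markers were at 142858 to 154980, erythroid markers at 15605 to 20652, and in both lists the groups overlapped. With endothelial sums of 325896 to 408293, the libraries thus held RNA of pericytes or smooth muscle besides that of ECs. How much of the RNA came from cells other than ECs was not tested. Of the pericyte and smooth muscle list 7 of 10 genes were listed, without Acta2, Myh11 and Tagln, and of the erythroid list 5 of 7. Fibroblast markers (3 of 5 listed, without Dcn and Lum) summed to 6733 and 6991 in wild-type and to 6030 and 3841 in *Foxq1* cKO, without overlap. Of these 3 markers only 1, Pdgfra, was lower without overlap, and 0 were higher. The part of these shifts in the values below was not tested.

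The regions upstream of the genes were read to show what their promoters share. RefSeq start sites on GRCm38.p6 gave windows of 300 bases (250 before and 50 after the start) for 68 of the 77 genes, 74 windows in all. The sequence CGCANGCG, the core of the site bound by NRF1, an activator of many nuclear genes for mitochondrial proteins, was found on either strand (reverse complement CGCNTGCG) in 20 of 74 windows, or 27.0%. It was found in 8.21% of all 32851 mouse windows and in 16.7% of the 11994 windows of genes in the comparison. The sequence CCGGAAG, a site for ETS-family factors such as GABPA (reverse complement CTTCCGG), was in 33.8% of the 74 windows, against 8.86% of all windows and 17.5% of the windows of tested genes. GTTTC, the short motif that the study assigns to FOXQ1 (reverse complement GAAAC), was in 47.3% of the 74 windows, against 45.0% of all windows and 41.3% of those of tested genes. None of the 3 motifs contains another. These matches are letters in a window and not measured binding.

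The 250 bases upstream are shown for 4 genes, those named by the rule given under processing that have a window with no annotated exon in its upstream bases. Mrpl52, Mrps36 and Mrps22 had 3 of the largest positive differences between the groups, and Mrpl41 was among the most abundant members per length. Capitals mark matches to any of the 3 motifs on either strand.
Mrpl52 (chr14:54426659-54426908, GRCm38.p6, + strand): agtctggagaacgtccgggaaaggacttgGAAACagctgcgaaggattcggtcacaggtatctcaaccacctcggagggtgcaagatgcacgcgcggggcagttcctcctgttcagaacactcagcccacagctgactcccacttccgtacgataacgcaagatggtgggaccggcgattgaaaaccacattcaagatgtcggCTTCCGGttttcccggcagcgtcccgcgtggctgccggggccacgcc
Mrps36 (chr13:100744660-100744909, GRCm38.p6, - strand): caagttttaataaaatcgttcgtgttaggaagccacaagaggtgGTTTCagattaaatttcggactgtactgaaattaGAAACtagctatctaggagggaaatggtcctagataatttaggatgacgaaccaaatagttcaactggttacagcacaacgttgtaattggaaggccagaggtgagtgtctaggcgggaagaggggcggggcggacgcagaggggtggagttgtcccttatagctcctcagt
Mrps22 (chr9:98601680-98601929, GRCm38.p6, - strand): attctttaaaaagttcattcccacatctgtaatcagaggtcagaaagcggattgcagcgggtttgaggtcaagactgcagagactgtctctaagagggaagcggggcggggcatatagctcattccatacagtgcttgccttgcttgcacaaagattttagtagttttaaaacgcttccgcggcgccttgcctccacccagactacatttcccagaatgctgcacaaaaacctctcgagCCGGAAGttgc
Mrpl41 (chr2:24975099-24975348, GRCm38.p6, - strand): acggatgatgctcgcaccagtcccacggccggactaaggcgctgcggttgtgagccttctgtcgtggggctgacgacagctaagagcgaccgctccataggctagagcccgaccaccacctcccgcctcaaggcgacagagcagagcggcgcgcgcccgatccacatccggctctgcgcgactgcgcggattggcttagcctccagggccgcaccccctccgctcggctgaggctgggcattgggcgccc
Mrpl52 and Mrps22 each show 1 ETS site, Mrpl52 also shows 1 copy of the GTTTC motif, Mrps36 shows 2 copies of the GTTTC motif, and Mrpl41 shows none of the 3 motifs. The full window of Mrpl52, which runs on past the start, holds 1 more ETS site.

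Every one of the 77 genes had reads in all 4 libraries, but so did all 12693 symbols of the expression table, which lists no gene without reads in a library. The mean level ranged from 18.9 normalized read counts to 2361, with a median of 626, against a median of 494 over all genes tested. Per length, as normalized read count per kb of RNA, the levels spanned a factor of 109 around a median of 397. Mrpl27, a large-subunit protein with a bacterial counterpart, had the highest mean, 2232 per kb, with 2815 and 2004 per kb in wild-type against 1840 and 2269 per kb in *Foxq1* cKO. Mrpl12, which forms part of the flexible stalk that recruits translation factors, was at 1975 and 1801 per kb in wild-type and at 1660 and 1740 per kb in *Foxq1* cKO. Mrpl41, a mitochondria-specific large-subunit protein, was at 1354 and 1763 per kb in wild-type and at 1444 and 1839 per kb in *Foxq1* cKO. Mrpl27 was above both others in every library, while the ranges of Mrpl12 and Mrpl41 overlapped and their order turned between libraries.

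At the low end, Mrps34, a mitochondria-specific small-subunit protein, was at 20.2 and 18.5 per kb in wild-type and at 21.3 and 22.2 per kb in *Foxq1* cKO. Mrps25 was at 28.1 to 33.7 per kb over the 4 libraries and Mrpl32 at 40.0 to 75.0 per kb. Unlike the highest genes, these 3 did not overlap, and their order Mrps34, Mrps25, Mrpl32 held in every library. The low levels of the first 2 come with a limit, since 77.8% of the annotated exon bases of Mrps34 and 69.8% of those of Mrps25 also lie in exons of other genes, where reads may not be assigned to either.

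**Figure D1:**
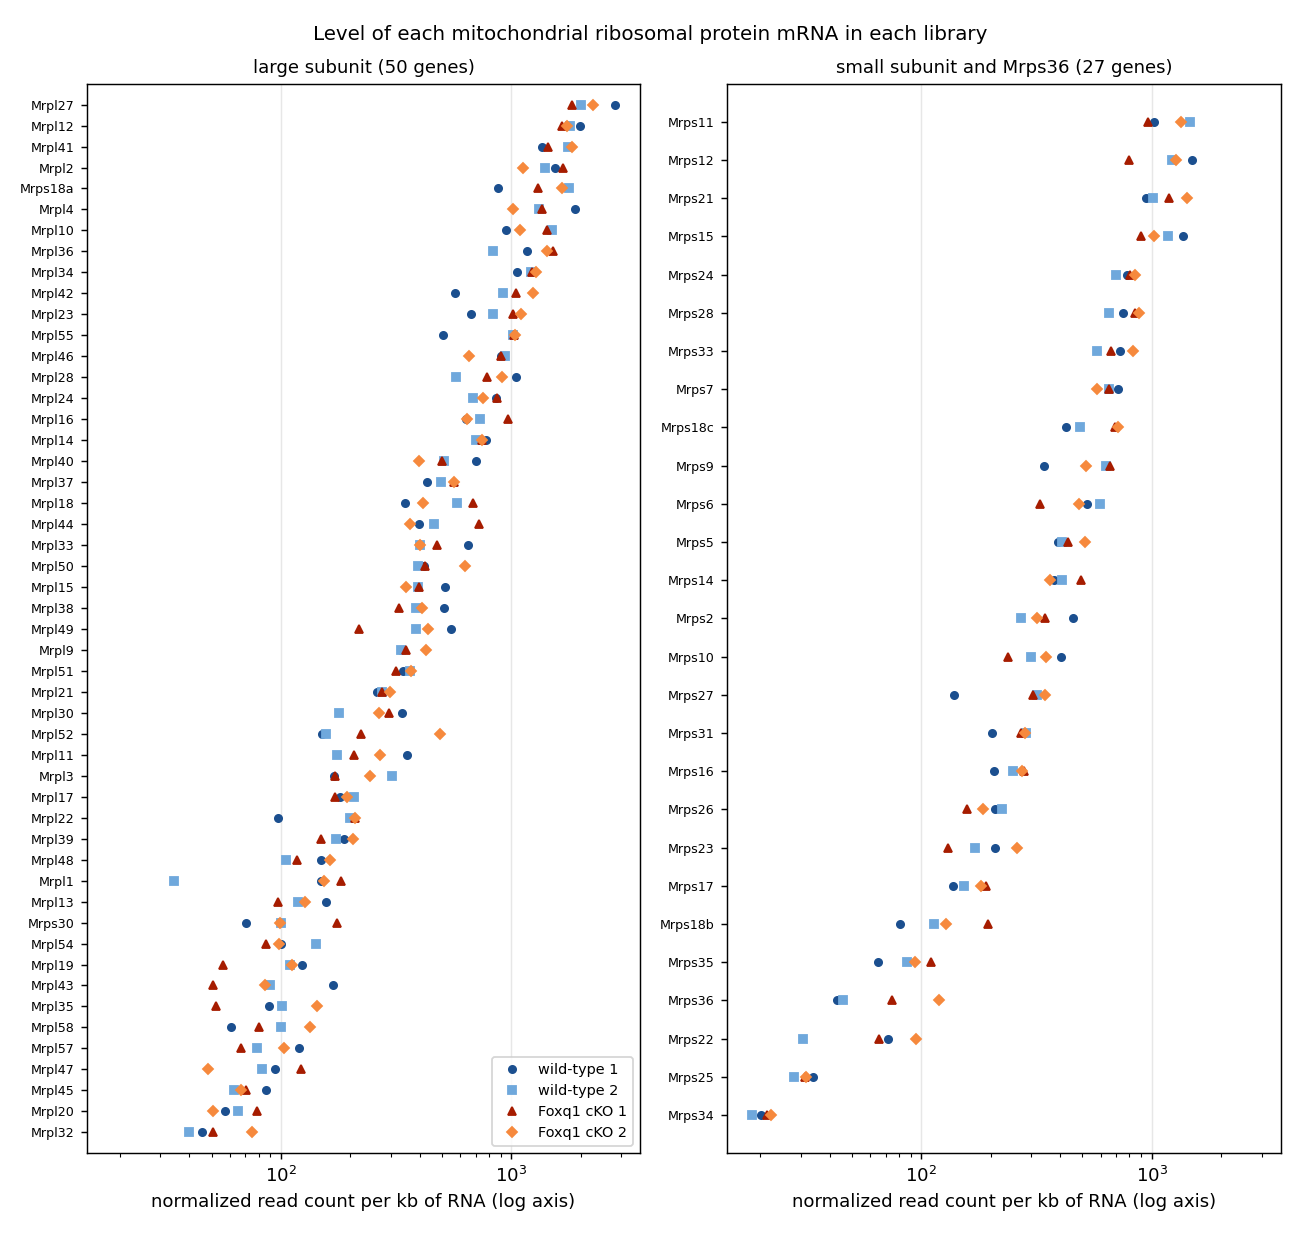
Normalized read count per kb of RNA (log axis) of each of the 77 genes, with 1 point per library, for 50 large-subunit genes (left) and 26 small-subunit genes with Mrps36 (right), ordered by mean. Levels ran from Mrps34, at 18.5 to 22.2 per kb, to Mrpl27, at 1840 to 2815 per kb, and the wild-type and *Foxq1* cKO points overlapped in 45 of the 77 genes.

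The summed level of the 77 mRNAs differed little between the groups. Their summed normalized read count was 54160 and 53460 in wild-type against 54079 and 55861 in *Foxq1* cKO, and the groups overlapped. The log2 ratio of the group means of this sum was 0.031. As a share of the reads on listed genes, the 77 genes held 0.299% and 0.300% in wild-type against 0.314% and 0.324% in *Foxq1* cKO, so on this scale, without the size factors, both *Foxq1* cKO libraries were higher. Large-subunit mRNAs summed to 37341 and 36118 in wild-type and to 36898 and 37312 in *Foxq1* cKO. Small-subunit mRNAs summed to 16789 and 17310 in wild-type and to 17129 and 18466 in *Foxq1* cKO. The ratio of the large-subunit to the small-subunit sum was 2.22 and 2.09 in wild-type against 2.15 and 2.02 in *Foxq1* cKO, so the balance of the subunits at the mRNA level also overlapped between the groups. In bulk samples of sorted cells, fewer cells of a type and less RNA per cell cannot be told apart.

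The RNA partners of these proteins were compared next. The small-subunit rRNA mt-Rnr1 had 2282 and 2347 normalized read counts in wild-type against 3111 and 2448 in *Foxq1* cKO, both above wild-type, with a log2 fold change of 0.25 ± 0.21 (SE, limma, unadjusted p = 0.279). The large-subunit rRNA mt-Rnr2 had 117624 and 123367 in wild-type against 125191 and 93180 in *Foxq1* cKO, with overlapping groups and a log2 fold change of -0.16 ± 0.14 (SE, limma, unadjusted p = 0.317). These rRNA and mt-mRNA genes were named after their values were seen. In every library mt-Rnr1 was far below mt-Rnr2. How well the libraries, made by the Smart-seq2 method according to the study, captured rRNA was not tested, so these values need not follow the rRNA levels of the cells. The summed level of the 11 mitochondrially encoded mRNAs with values here, templates of the mitoribosome, was 269282 and 285857 in wild-type against 266288 and 268111 in *Foxq1* cKO, lower in both *Foxq1* cKO libraries by a log2 ratio of the means of -0.055. This difference is smaller than that between the 2 wild-type libraries, and an exact permutation test of 2 libraries against 2 cannot give a p below 0.333.

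**Figure D2:**
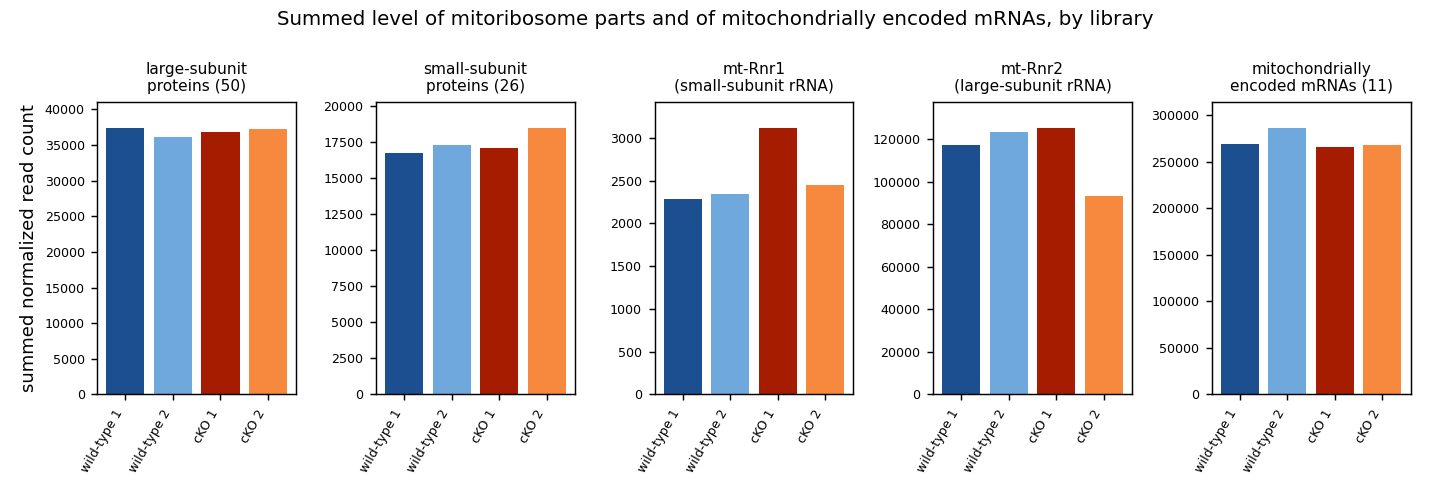
Summed normalized read count in each of the 4 libraries, from left to right for 50 large-subunit and 26 small-subunit protein genes, the rRNAs mt-Rnr1 and mt-Rnr2, and 11 mitochondrially encoded mRNAs (bars start at 0, 1 bar per library). Protein mRNA sums lay within 36118 to 37341 for the large and 16789 to 18466 for the small subunit, and mt-Rnr2 ran from 93180 to 125191.

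Gene by gene, no mitochondrial ribosomal protein mRNA passed the test. All 77 genes were above the level filter (a mean of at least 10 normalized read counts). None had an unadjusted p under 0.05 in limma, where 5.22% of the 12472 genes tested did, and none passed after Benjamini-Hochberg adjustment, where 0% of all genes did. DESeq2 on the recovered reads also gave 0 of 77 at an unadjusted p under 0.05 (background 6.45%), and so did edgeR (background 4.92%). The smallest p of the 77 was that of Mrpl36, a large-subunit protein with a bacterial counterpart, which was singled out after its values were seen. Mrpl36 was at 1081 and 766 normalized read counts in wild-type and at 1403 and 1318 in *Foxq1* cKO. Both knockout values were above both wild-type values, and the fold change was 1.49 (95% interval 0.903 to 2.47, limma, unadjusted p = 0.0992, adjusted p = 0.857), which ranked 1392 among all genes.

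The intervals show what size of difference these libraries could have missed. For 16 of the 77 genes the 95% interval of the log2 fold change lay wholly between -1 and 1, or 20.8%, against 23.1% of all genes tested. These included Mrpl12, Mrpl27, Mrpl41 and, outside the rule for named genes, Mrps5, Mrps7 and Mrps14. For the other 61 genes a change of more than 1 on the log2 scale in at least 1 direction was not excluded by the interval. Standard errors had a median of 0.40 on the log2 scale for the 77 genes and of 0.50 for all genes tested. The median absolute difference between the 2 wild-type libraries was 0.33 on the log2 scale, that between the 2 *Foxq1* cKO libraries 0.32, and that between the groups 0.26. In 15 of the 77 genes (19.5%) the difference between the groups exceeded both differences between replicates, against 22.7% of all genes tested.

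The differences leaned to higher values in *Foxq1* cKO. The median log2 fold change of the 77 genes was 0.10, against 0.01 over all genes tested, and 45 of 77 genes (58.4%) were above 0, against 50.7% of all genes. Both *Foxq1* cKO values were above both wild-type values in 24 genes (31.2%, background 18%) and below both in 8 genes (10.4%, background 18%), while the groups overlapped in the other 45. Without wild-type 1, the library that stood apart, both *Foxq1* cKO values were above wild-type 2 in 35 of 77 genes (background 34.7%) and below it in 14 (background 34.5%), and the median was 0.06. Measured against its own mean over the 4 libraries, the median gene was at -0.030 and -0.036 in wild-type 1 and 2, at 0.005 in *Foxq1* cKO 1 and at 0.113 in *Foxq1* cKO 2, on the log2 scale. The value of *Foxq1* cKO 2 was the farthest from 0, and without that library the median log2 fold change was 0.06. In the 45 genes whose exons overlap no other gene, the median was 0.19.

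**Figure D3:**
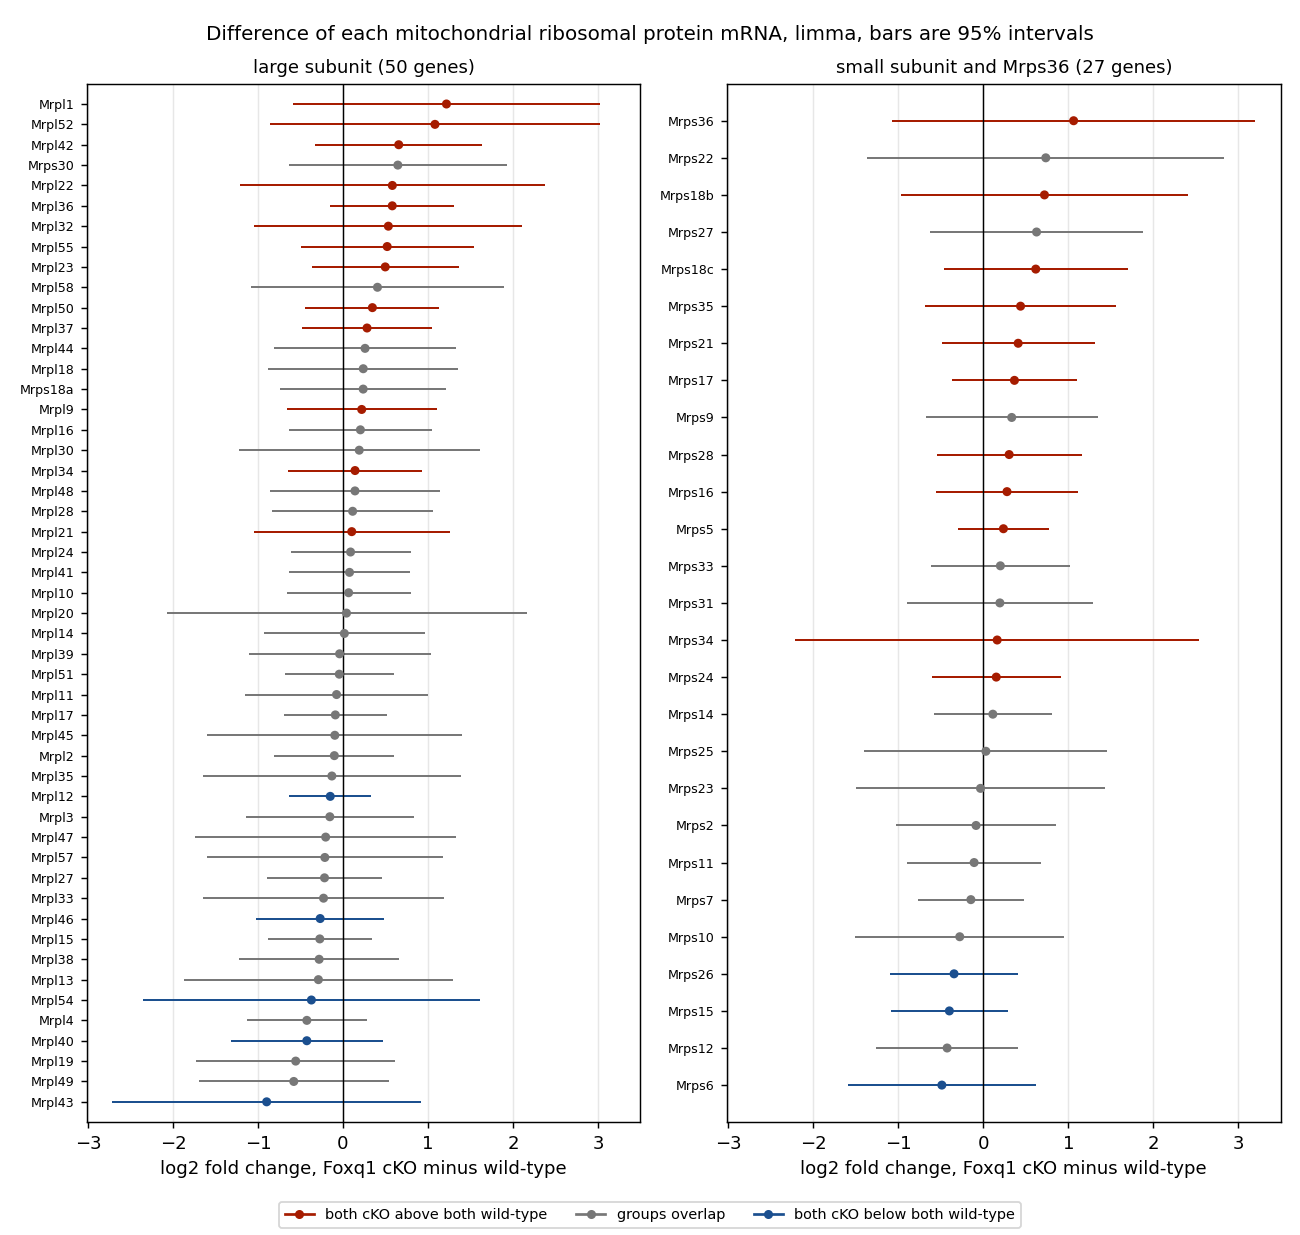
Log2 fold change of *Foxq1* cKO against wild-type for each of the 77 genes, for large-subunit genes (left) and small-subunit genes with Mrps36 (right), with the 95% interval of limma as a bar and the colour showing whether the values of the 2 groups overlap. Every interval includes 0, and estimates run from -0.90 in Mrpl43 to 1.22 in Mrpl1.

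By subunit, 27 of 50 large-subunit genes and 17 of 26 small-subunit genes had a log2 fold change above 0, with medians of 0.05 and 0.18. The counts without overlap that follow stand beside a background of 18% of all genes in each direction. Among the 30 large-subunit proteins with a bacterial counterpart, 9 were higher without overlap and 1, Mrpl12, was lower, with a median of 0.05. Among the 20 mitochondria-specific proteins of the large subunit, 4 were higher and 4 lower, with a median of 0.02. Among the 16 small-subunit proteins with a bacterial counterpart, 7 were higher and 2 lower, with a median of 0.13. Among the 10 mitochondria-specific proteins of the small subunit, 3 were higher and 1 lower, with a median of 0.20. As shares these counts run from 20% to 43.8% higher and from 3.33% to 20% lower, and the difference between the classes was not tested.

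Among large-subunit genes, Mrpl1 had the largest positive difference. Its product is the protein of the stalk through which tRNA leaves the ribosome. Mrpl1 was at 528 and 123 normalized read counts in wild-type and at 648 and 544 in *Foxq1* cKO, with a fold change of 2.33 (95% interval 0.665 to 8.13, limma, unadjusted p = 0.151). Wild-type 2 alone was low, while wild-type 1 lay just under the *Foxq1* cKO values. Without wild-type 1 the log2 fold change of Mrpl1 was 2.27 (unadjusted p = 0.0050), and without wild-type 2 it was 0.17, so its size was set by 1 wild-type library. Mrpl52, a mitochondria-specific protein, was at 63.2 and 65.8 in wild-type and at 92.5 and 204 in *Foxq1* cKO, with a fold change of 2.12 (95% interval 0.552 to 8.12, limma, unadjusted p = 0.222). Its wild-type values were close together and 1 *Foxq1* cKO library was high. Mrps30, also in the large subunit, was at 234 and 333 in wild-type and at 580 and 330 in *Foxq1* cKO, with overlapping groups (log2 fold change 0.65 ± 0.53, SE).

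On the negative side, Mrpl43, a mitochondria-specific protein, was at 235 and 126 in wild-type and at 70.8 and 119 in *Foxq1* cKO. The groups did not overlap, but wild-type 2 and *Foxq1* cKO 2 were close, and the fold change was 0.537 (95% interval 0.152 to 1.90, limma, unadjusted p = 0.274). Of the exon bases of Mrpl43, 33.4% also lie in other genes, mainly in Twnk, which encodes the helicase of mitochondrial DNA, on the opposite strand. Mrpl49, a mitochondria-specific protein, was at 967 and 682 in wild-type and at 386 and 764 in *Foxq1* cKO. Mrpl19, which has a bacterial counterpart and shares 36.0% of its exon bases with other genes, was at 615 and 549 in wild-type and at 281 and 555 in *Foxq1* cKO. In both genes *Foxq1* cKO 1 was low and *Foxq1* cKO 2 lay within or next to the wild-type range, with log2 fold changes of -0.58 ± 0.46 and -0.56 ± 0.48 (SE). Mrpl12 was lower in both *Foxq1* cKO libraries, at 2185 and 2290 against 2599 and 2370, but by a fold change of 0.901 only (95% interval 0.645 to 1.26).

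In the small subunit, Mrps22, a mitochondria-specific protein, had a log2 fold change of 0.73 ± 0.86 (SE). It was at 85.9 and 36.9 normalized read counts in wild-type and at 78.4 and 114 in *Foxq1* cKO, with overlapping groups. Wild-type 2 was low, and the log2 fold change of Mrps22 was 0.14 without wild-type 2 and 1.33 without wild-type 1. Mrps6, which has a bacterial counterpart, was at 442 and 504 in wild-type and at 277 and 409 in *Foxq1* cKO, without overlap (log2 fold change -0.49 ± 0.45, SE, limma, unadjusted p = 0.324). Mrps12, the counterpart of the bacterial protein that keeps decoding accurate, was at 1324 and 1078 in wild-type and at 704 and 1122 in *Foxq1* cKO, so that only *Foxq1* cKO 1 was below wild-type. Mrps34 was among the genes without overlap, with 22 and 17 reads in wild-type against 18 and 20 in *Foxq1* cKO before division by the size factors, and its order between the groups rests on that division. Mrps36 was at 30.3 and 31.9 in wild-type and at 52.3 and 83.4 in *Foxq1* cKO, both higher, with a fold change of 2.09 (95% interval 0.475 to 9.19, limma, unadjusted p = 0.27).

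The 3 Mrps18 paralogs are related to 1 bacterial protein, of which the nomenclature counts only Mrps18c as the counterpart and places the other two among the mitochondria-specific proteins. They occupy different places in the mitoribosome, Mrps18a in the large subunit and Mrps18b and Mrps18c in the small subunit. Mrps18c was at 272 and 313 in wild-type and at 440 and 457 in *Foxq1* cKO, the closest agreement within groups of the 3, with a fold change of 1.53 (95% interval 0.723 to 3.25, limma, unadjusted p = 0.214). Mrps18b was at 86.8 and 123 in wild-type and at 210 and 138 in *Foxq1* cKO, with a log2 fold change of 0.72 ± 0.69 (SE). Mrps18a was at 771 and 1565 in wild-type and at 1149 and 1461 in *Foxq1* cKO, with overlapping groups, and its direction turned without wild-type 1 (log2 fold change -0.27). Of the exon bases, 30.5% in Mrps18b and 23.2% in Mrps18c also lie in other annotated genes.

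The position of the genes was compared with their values. Divergent protein-coding neighbours, whose start lies within 1000 bases on the other strand (an overlap of up to 300 bases was allowed), were found for 23 of 77 genes (29.9%), against 13.1% of the 11279 tested protein-coding genes. Some of these neighbours also serve mitochondria. Mrpl36 faces Ndufs6, a complex I subunit, which was at 76.7 and 84.7 in wild-type and at 90.4 and 132 in *Foxq1* cKO. Mrps12 faces Sars2, the mitochondrial seryl-tRNA synthetase, which was at 246 and 92.7 in wild-type and at 221 and 226 in *Foxq1* cKO. Ndufs6 and Sars2 were chosen after their values were seen. Of the 21 neighbours that were tested, 10 had a difference of the same sign as the mitoribosome gene, and over all 617 tested divergent pairs 51.4% had the same sign. Mrps11 and Mrpl46, also chosen after their values were seen, are 2 mitoribosome genes whose 5′ exons overlap on opposite strands. Mrps11 was at 1076 and 1554 in wild-type and at 1016 and 1417 in *Foxq1* cKO, and Mrpl46 was at 1026 and 1069 in wild-type and at 1018 and 743 in *Foxq1* cKO.

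Members with and without each promoter motif were set side by side. The median log2 fold change was 0.04 in the 20 genes with the NRF1 core, of which 5 were higher and 3 lower without overlap, and 0.13 in the 48 without it, of which 16 were higher and 4 lower. It was 0.14 in the 25 genes with the ETS site, of which 8 were higher and 2 lower, and 0.09 in the 43 without it, of which 13 were higher and 5 lower. For GTTTC it was 0.20 in 35 genes with the motif, of which 11 were higher and 1 lower, and 0.07 in 33 without it, of which 10 were higher and 6 lower. The background is 18% of all genes in each direction, and none of these splits was tested. RNA length was short, with a median of 1.32 kb against 2.94 kb over all tested genes, and across the 77 genes the log2 fold change had a Spearman correlation of -0.13 with RNA length, given as a description since genes of 4 libraries are not independent.

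The genes that act with the mitoribosome gave the same count of calls. None of the 5 other mitoribosome proteins had an unadjusted p under 0.05 in limma, nor of the 28 assembly factors, the 15 listed translation factors of 16, the 18 listed mitochondrial aminoacyl-tRNA synthetases of 20, or the 17 genes of mitochondrial DNA transcription and maintenance. Over all genes tested the share was 5.22%, so lists this short would hold few calls at that share. In the order given, the smallest unadjusted p-values of the 5 lists in limma were 0.522, 0.0719, 0.0724, 0.0684 and 0.0552. The median log2 fold changes of these lists were 0.13, 0.19, 0.06, 0.08 and 0.29. Assembly factors, which modify the rRNAs and guide subunit assembly, were higher without overlap in 7 (25%) and lower in 3 (10.7%) of 28, where 18% of all genes were in each direction. Translation factors were higher in 3 (20%) and lower in 0 of 15, and aminoacyl-tRNA synthetases, which charge the tRNAs, were higher in 2 (11.1%) and lower in 0 of 18. Of the 16 tested genes encoded in mitochondrial DNA, 1 was higher and 3 were lower, and their median was -0.02.

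Among the 5 other mitoribosome proteins, Dap3, a GTP-binding protein of the small subunit, was at 1117 and 1091 in wild-type and at 1088 and 1015 in *Foxq1* cKO. Aurkaip1 was at 1099 and 1372 in wild-type and at 1460 and 1245 in *Foxq1* cKO, and Chchd1 at 690 and 747 against 917 and 759. Differences were under 0.26 on the log2 scale in size in all 5, with Gadd45gip1 at -0.25 ± 0.91 (SE) and Ptcd3 at 0.13 ± 0.57 (SE). These 5 are the whole of their list and were named after their values were seen. NRF1 and GABPA, whose sites were searched above, were named in the same way. Nrf1 was at 445 and 1316 in wild-type and at 1167 and 1400 in *Foxq1* cKO, with wild-type 1 low, and Gabpa at 1731 and 794 against 1339 and 949, so both overlapped between the groups.

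Other large protein machines were set beside the mitoribosome. Of 76 cytosolic ribosomal proteins, which make up the ribosome outside mitochondria, 40 (52.6%) were higher and 2 (2.63%) lower in *Foxq1* cKO without overlap (background 18% in each direction), with a median log2 fold change of 0.20. Of 79 tested nuclear-encoded respiratory chain subunits, 40 (50.6%) were higher and 3 (3.8%) lower, with a median of 0.23. For the 77 mitoribosome genes the same counts were 24 and 8 with a median of 0.10, and no test of the difference between the lists was made. Without wild-type 1, both *Foxq1* cKO values were above wild-type 2 in 52 of 76 cytosolic ribosomal protein genes and in 52 of 79 respiratory chain genes, against 35 of 77 mitoribosome genes (background 34.7%). They were below it in 6, 10 and 14 genes (background 34.5%). In the cytosolic list 1 gene, Rpl34, had an unadjusted p under 0.05 (527 and 835 in wild-type, 1337 and 1690 in *Foxq1* cKO, limma, unadjusted p = 0.0142, adjusted p = 0.857), and in the respiratory chain list none had. Over all genes tested the share under 0.05 in limma was 5.22%. Ribosomal protein genes have many near-identical pseudogenes in the genome, so reads of these short mRNAs can be split in counting.

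**Figure D4:**
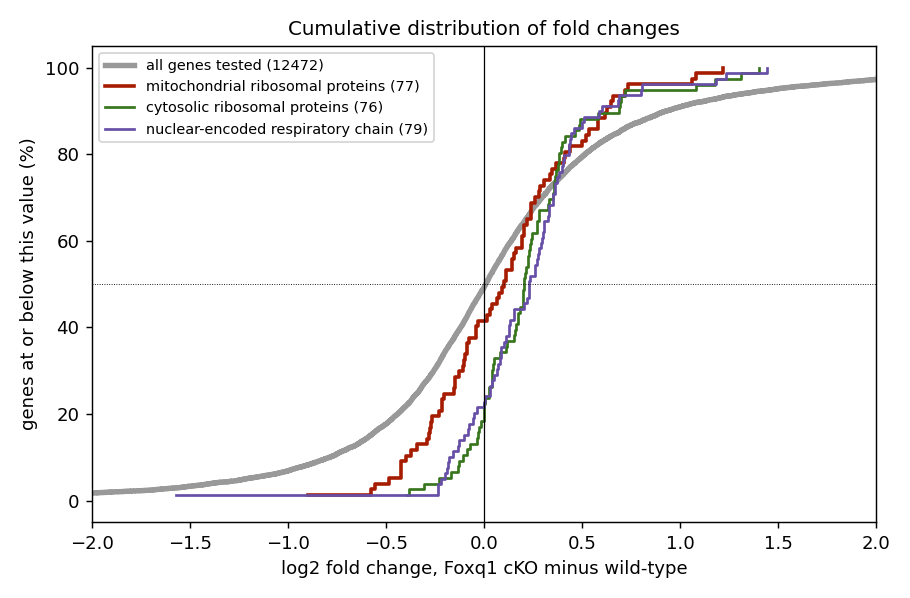
Cumulative share of genes (%) at or below each log2 fold change of *Foxq1* cKO against wild-type, for 12472 tested genes, 77 mitochondrial ribosomal proteins, 76 cytosolic ribosomal proteins and 79 nuclear-encoded respiratory chain subunits. The curves cross 50% at 0.01, 0.10, 0.20 and 0.23, and the mitoribosome curve lies between that of all genes and those of the other lists over most of the range below 0.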

How the data were processed

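RNA-seq of 2 wild-type and 2 *Foxq1* cKO samples was used, grouped by the genotype and title in the labels. The authors deposited 1 table of normalized values, a signal per gene, in which 100% of the values were whole reads (tolerance 0.001 reads) divided by 1 size factor per library, 0.919 to 1.19, so that the reads were recovered. The submitters' processing notes name Bowtie2 2.2.3, TopHat2 2.0.12, HTSeq 0.6.0 and build mm9, with no roles given. Whether counting used strand is not given in the sources used here. The study describes cells sorted with a CD31 antibody, RNA extracted with TRIzol and sequencing based on Smart-seq2. The 1207361 lines of the table repeat each gene and were reduced to 12693 symbols. No gene had fewer than 21 reads over the 4 libraries, and the fewest reads of a member in a library was 17.

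The main test was limma 3.58.1 (lmFit, eBayes with a trend, R 4.3.3) on values log2-transformed after adding 1. It covered the 12472 genes whose mean reached 10, with Benjamini-Hochberg adjustment over all of them. Fold changes are on the log2(value + 1) scale, which understates changes of low genes. Whole reads could be recovered, so DESeq2 1.42.0 and edgeR 4.0.16 were run as alternatives. The fits were tested on simulated data. RNA length was that of the principal transcript, and exon overlaps came from GENCODE release 21 for mouse (GRCm38), matched by gene identifier for 12678 symbols. Promoter windows came from RefSeq. Tables were made with Python 3.11.15 and pandas 2.3.3, and figures with matplotlib 3.10.9.

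The members and lists were chosen with earlier results of these data known. Named genes were *Foxq1*, members with an unadjusted p under 0.05, the 5 largest differences in each direction, the 3 highest and 3 lowest levels per length, the Mrps18 paralogs, Mrps30 and Mrps36, list genes with an unadjusted p under 0.05, and class examples. Others are said to be named after their values were seen. The alternatives were pseudocounts of 0.1 and 5, no filter, a minimum mean of 50, quantile and TMM scaling, no trend, no moderation, the count tools, the replicate number as a block, each library left out, and the list without Mrps36.

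The labels give the same replicate numbers 1 and 2 in both groups but name no shared litter or day. The libraries carry no molecular identifiers, so genes with few reads have more error than counting gives.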

Additional observations from a re-analysis of the deposited data

How the results depend on the processing

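The members' count of 0 at an unadjusted p under 0.05 became 1 without the limma trend (Mrps36) and 1 without moderation (Mrps18c), where 675 and 695 of all 12472 genes were under it. The count also rose when either wild-type library was left out, as did that over all genes tested, where the share stayed above that of the members. The members concerned had log2 fold changes of 2.27 (Mrpl1) and 0.83 (Mrpl36) without wild-type 1, and of 1.02 (Mrpl55) and 1.22 (Mrps27) without wild-type 2. In the fits with 1 library in a group, that library is assumed to vary like the others. The count after adjustment was 0 under every alternative run. The members' median log2 fold change lay between 0.059 and 0.132 over the left-out libraries, and at 0.083 with DESeq2, 0.086 with edgeR and 0.115 with quantile normalization. The 32 members without overlap (background 18% of all genes in each direction) became 49 when wild-type 1 was left out. This alternative was chosen after seeing the data and by its construction compares fewer values. Of these members 35 were higher and 14 lower, where 34.7% of all genes tested were higher and 34.5% lower. *Foxq1* kept its direction but missed the threshold without moderation of the limma variances (-4.47, limma, unadjusted p = 0.0649). Over all genes tested, 651 had an unadjusted p under 0.05, against 1569 without wild-type 2 and 276 without *Foxq1* cKO 1, and DESeq2 called 59 after adjustment where limma called 0. Over the left-out libraries the log2 fold change of Mrpl27 ran from -0.46 to 0.0277, that of Mrpl41 from -0.11 to 0.27, that of Mrps25 from -0.10 to 0.16 and that of Mrps18a from -0.27 to 0.75, and with quantile normalization Mrps34 turned to -0.22 and Mrps25 to -0.0207. The cause of these changes was not tested.

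Same-numbered samples did not deviate together (correlation 0.03 over all genes), so no pairing by number was seen. With 2 libraries a group this cannot exclude a shared litter or day. With the replicate block the members' count at an unadjusted p under 0.05 was 0, the median was 0.10 and 693 genes of all tested passed. With 2 libraries a group, and a median standard error of 0.40, differences below about 1 on the log2 scale could be missed in many members.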
